A study of Mus musculus with 17 samples.

Results

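The chemokine receptors described here are Cxcr6, Cxcr3, Cxcr4, Cxcr5, Ccr2, Ccr4, Ccr6, Ccr7 and Ccr8, that is, the 9 genes of this family other than Ccr9 that were listed by name. They were found as the 13 probe sets that the platform's gene table assigns to these symbols, out of 45101 probe sets and 18194 named genes. Their values are log2 of the deposited RMA values (a background-corrected and normalized probe intensity) on 17 mouse arrays in 8 groups.

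Chemokine receptors are membrane receptors coupled to inhibitory G proteins. They steer a T cell along gradients of secreted chemokines, and the set a T cell carries decides whether it enters lymph nodes, follicles, skin, gut or inflamed tissue. Effector and memory T cells replace the receptors of naive cells with receptors for inflamed tissue, and retinoic acid (RA), a vitamin A derivative made by dendritic cells of the gut, is known for giving T cells the gut-homing receptor that is left out here.

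In the co-culture experiment, splenic CD4+ Foxp3- T cells of C57BL/6-Foxp3/GFP reporter mice were activated for 5 days with dendritic cells, 10 T cells per dendritic cell, in anti-CD3 (1 ug/ml), TGFbeta (0.6 ng/ml) and IL-2 (5 ng/ml). The dendritic cells came from the intestinal lamina propria (LP-DC), from spleen with added RA at 100 nM (Sp-DC plus RA), or from spleen alone (Sp-DC). After culture the CD4+ cells were sorted by the GFP reporter into Foxp3+ cells (2 arrays for each of the 3 cultures) and Foxp3- cells (2 arrays with LP-DC, 1 with Sp-DC plus RA, 2 with Sp-DC). In the memory experiment, CD44hi CD62L- CD25- CD4+ memory T cells of C57BL/6 mice were cultured at 2 memory cells per naive T cell for 48 hours in TGFbeta (10 ng/ml), IL-2 (20 U/ml) and beads carrying anti-CD3 and anti-CD28, with 100 nM RA (3 arrays) or without RA (3 arrays), and were sorted again by a congenic marker. All mice were 6 to 10 weeks old, and each array holds RNA pooled from 3 male mice, amplified before hybridisation. Nothing in the labels says that the arrays of a group come from separate cultures, so the p-values measure the spread between these arrays.

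The array medians lay between 5.88 and 5.98 on the log2 scale, and a level under the median of its array is treated here as low. Foxp3 itself, on its 1 named probe set, lay between 3.88 and 4.53 on all 11 co-culture arrays, under the median on every one, so the array does not check the Foxp3+ sort there. In memory cells it averaged 8.38 with RA and 7.69 without RA. The markers of CD4 T cells (9 of 10 measured) were above the median on at least 1 array in every group. Of the 15 marker genes of dendritic cells and macrophages 8 to 10 were above the median on some array of each group. Their summed linear values with LP-DC were 1898 to 1900 in Foxp3+ cells and 1531 to 1746 in Foxp3- cells. With Sp-DC they were 2412 to 3098 in Foxp3+ cells and 2214 to 2951 in Foxp3- cells. With Sp-DC plus RA they were 2317 to 3461 in Foxp3+ cells and 3331 in Foxp3- cells. In bulk RNA, fewer cells that carry a receptor and less RNA per cell cannot be told apart.

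Cxcr6 and Cxcr3 are the 2 receptors that were lower together in Foxp3+ cells in the results below, so the DNA around their starts is shown, from 250 bases before to 50 bases after the annotated gene start, taken from RefSeq on the build GRCm38.p6. Capitals mark matches to ACCACA, the reverse complement of the core TGTGGT of Runx factors, which shape T cell lineages. The Cxcr6 window lies at chr9:123806227-123806526 on the plus strand, and its 1 match starts 10 bases before the gene start.

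Cxcr6: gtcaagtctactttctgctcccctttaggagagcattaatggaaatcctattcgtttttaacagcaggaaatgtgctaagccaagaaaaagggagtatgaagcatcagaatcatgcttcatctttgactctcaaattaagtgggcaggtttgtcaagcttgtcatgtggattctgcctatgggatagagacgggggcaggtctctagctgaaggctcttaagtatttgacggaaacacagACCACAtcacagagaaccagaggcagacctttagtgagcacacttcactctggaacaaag

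The Cxcr3 window lies at chrX:101734098-101734397 on the minus strand, and its 2 matches start 110 bases before and 11 bases after the gene start.

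Cxcr3: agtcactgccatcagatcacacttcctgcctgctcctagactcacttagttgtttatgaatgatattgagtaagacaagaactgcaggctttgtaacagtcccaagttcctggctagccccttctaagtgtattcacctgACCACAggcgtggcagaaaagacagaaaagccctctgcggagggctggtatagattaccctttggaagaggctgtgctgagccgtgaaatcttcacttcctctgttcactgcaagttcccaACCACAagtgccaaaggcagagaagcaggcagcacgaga

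Of the 9 receptors 7 had windows of this length in the RefSeq table, and Ccr6 had 2 windows. Those of Ccr2 and Ccr4 and the second of Ccr6 lie inside the annotated gene, not around its outer start. The Ccr4 window, for example, is at chr9:114496495-114496794 on the minus strand, in a gene annotated up to 114505476. Searched on both strands, the Runx core TGTGGT was in 16.76% of all 32851 mouse windows, and among the receptors it was in those of Cxcr6 and Cxcr3 and in the first window of Ccr6. This motif was added after the sequences had been read. The nuclear receptor element AGGTCA, the letters bound by retinoic acid receptors among others, was in 16.26% of all windows and in the first Ccr6 window. The T-box core GGTGTGA, bound by factors such as the one encoded by Tbx21, was in 3.98% of all windows and in no window of these receptors. The windows of Cxcr4, Ccr2, Ccr4 and Ccr8 held none of these letters, and a match or its lack is a description of the letters only. For Ccr2 and Ccr4 it does not concern the outer gene start.

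Against the array medians, Cxcr3, Ccr6 and Ccr7 lay above on 17 of 17 arrays, and so did the probe set used for Ccr2. Ccr8 lay above on 16 arrays and Cxcr4 on 15. Cxcr6 and Ccr4 lay above on 13 arrays each, 7 of the 11 co-culture arrays and all 6 memory arrays. Cxcr5, the follicular receptor for Cxcl13, lay under the median on all 17 arrays, between 4.33 and 4.64 in the co-culture and between 4.85 and 5.32 in memory cells, and was therefore not tested. One further probe set of Ccr2, at 4.37 to 4.95, was also under the median on every array. The other 8 genes passed the filter on low values in both experiments.

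**Figure D1:**
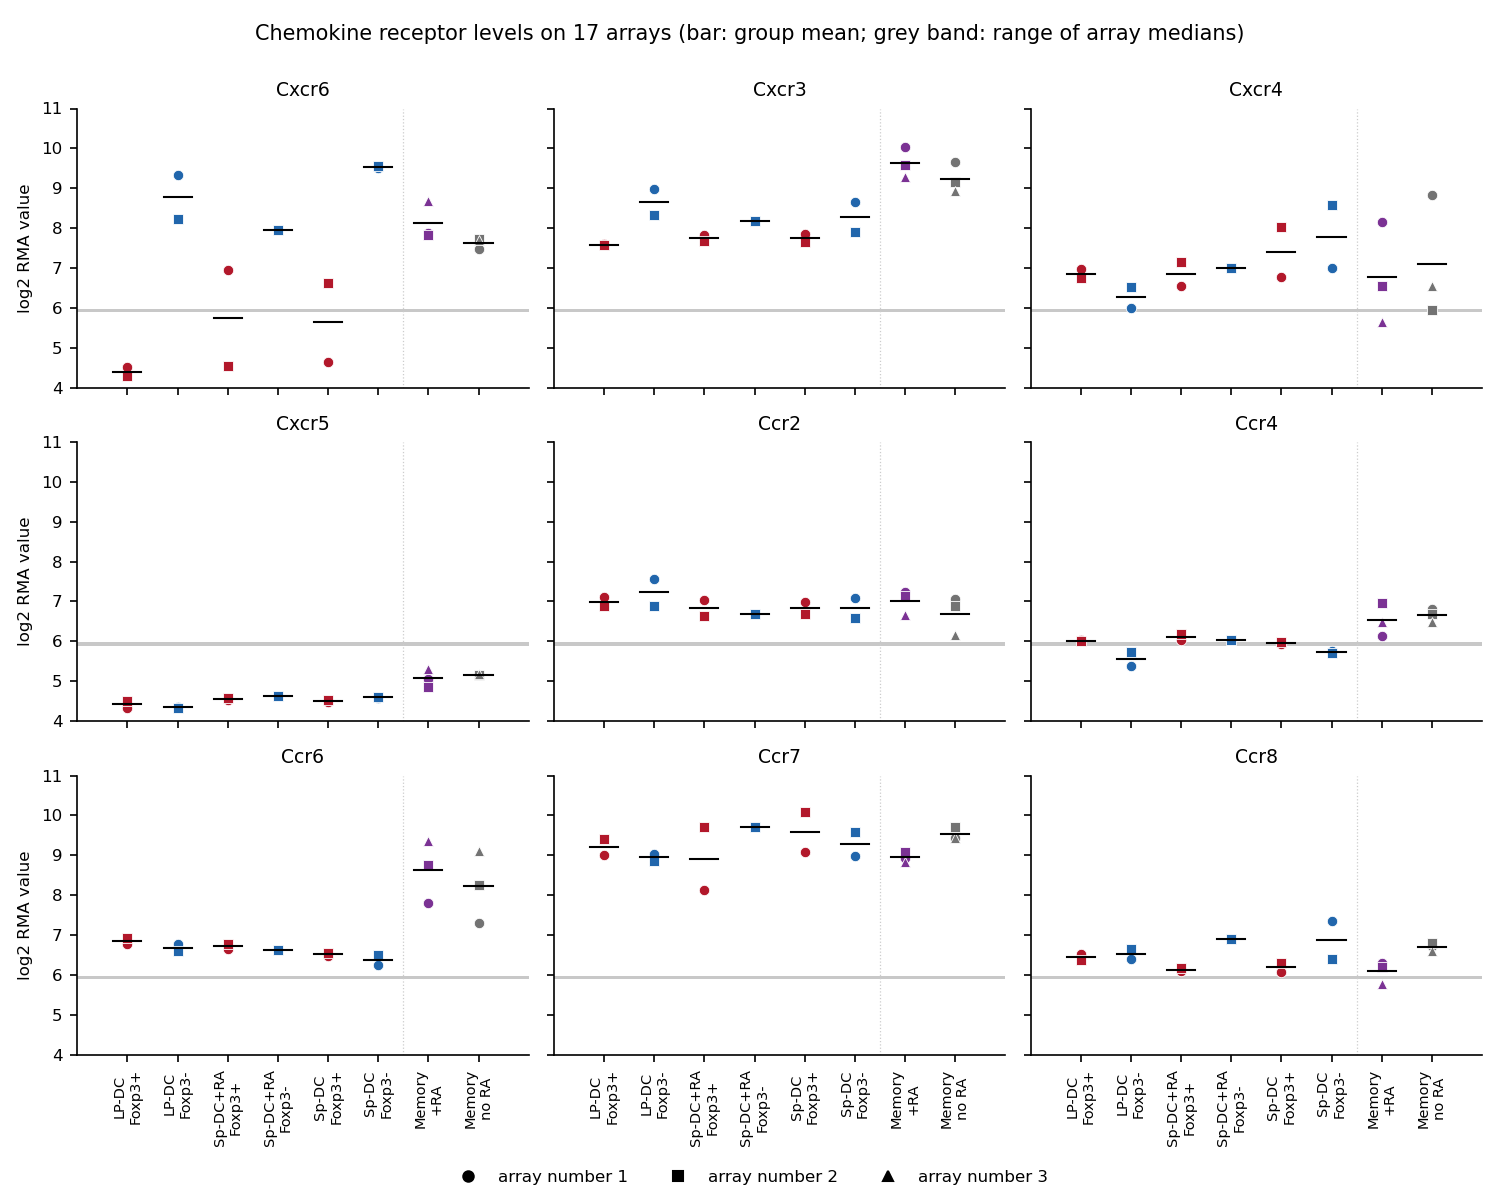
Log2 RMA value (vertical axis) of the 9 receptors on each of the 17 arrays (points, with the array number as the shape), by group (horizontal axis), with the group mean as a bar and the range of the array medians as a grey band. Cxcr6 has all 6 Foxp3+ arrays (4.28 to 6.94) under all 5 Foxp3- arrays (7.96 to 9.57), Cxcr5 stays under the band throughout, and Ccr6 is highest in the memory groups.

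Differences were fitted with limma across all tested genes, in an unpaired fit, which was set as the main one. A paired fit, set as an alternative, adds the array number as a block, because arrays of the same number deviated together. In the unpaired fit only Cxcr6 passed, in the mean Foxp3+ over Foxp3- comparison. A gene passed where its Benjamini-Hochberg adjusted p was under 0.05. Whether groups overlapped is stated per receptor as a description, and the share of all genes without overlap was not counted.

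The first comparison asks which receptors mark the cells that turned on Foxp3, over 6 Foxp3+ and 5 Foxp3- arrays. Cxcr6 fell strongly in Foxp3+ cells in both fits, Cxcr3 fell in the paired fit, and no receptor rose. In the mean over the 3 cultures 1 of the 8 tested receptors passed in the unpaired fit, where 0.92% of all tested genes passed, and 2 of 8 passed in the paired fit, where 4.79% did. At an unadjusted limma p under 0.05 were 4 receptors (Cxcr6, Cxcr3, Ccr4 and Ccr8) in each fit, beside 15.0% of tested genes paired and 8.09% unpaired. The median difference of the 8 receptors was -0.03 in the paired fit, against -0.02 for all tested genes.

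Cxcr6 encodes the receptor for Cxcl16 and is carried by activated and tissue-resident T cells. In Foxp3+ cells its log2 level was 4.50 and 4.28 with LP-DC, 6.94 and 4.54 with Sp-DC plus RA, and 4.63 and 6.63 with Sp-DC. In Foxp3- cells it was 9.33 and 8.24 with LP-DC, 7.96 on the single array with Sp-DC plus RA, and 9.50 and 9.57 with Sp-DC. The groups did not overlap, and 4 of the 6 Foxp3+ arrays lay under the array median while all 5 Foxp3- arrays lay above it. The Foxp3+ arrays were themselves uneven, with number 1 high with Sp-DC plus RA and number 2 high with Sp-DC. The mean difference was -3.56 ± 0.47 in log2 (SE, paired limma fit, adjusted p = 0.00243), and -3.50 ± 0.52 in the unpaired fit (adjusted p = 0.0257). Because most of the Foxp3+ levels are low, no exact fold is given. With levels under the array median set to it, the difference was -2.60 (paired adjusted p = 0.0025). That is 6.06-fold lower as an estimate of the mean, and no bound for single arrays or cultures. The unpaired call was lost without any 1 of 6 arrays (both LP-DC Foxp3+, LP-DC Foxp3- number 1, Sp-DC Foxp3+ number 1 and both Sp-DC Foxp3-), with adjusted p of 0.0511 to 0.0858, while the paired call held without each of these 10 arrays in turn. The single Foxp3- array with Sp-DC plus RA cannot be left out of a mean over 3 cultures, and without it the mean over LP-DC and Sp-DC was -4.15 (adjusted p = 0.00182 paired and 0.0233 unpaired). The second Cxcr6 probe set moved the same way, by -2.83 ± 0.38 in the paired fit (adjusted p = 0.0033 over 20131 probe sets fitted singly).

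**Figure D2:**
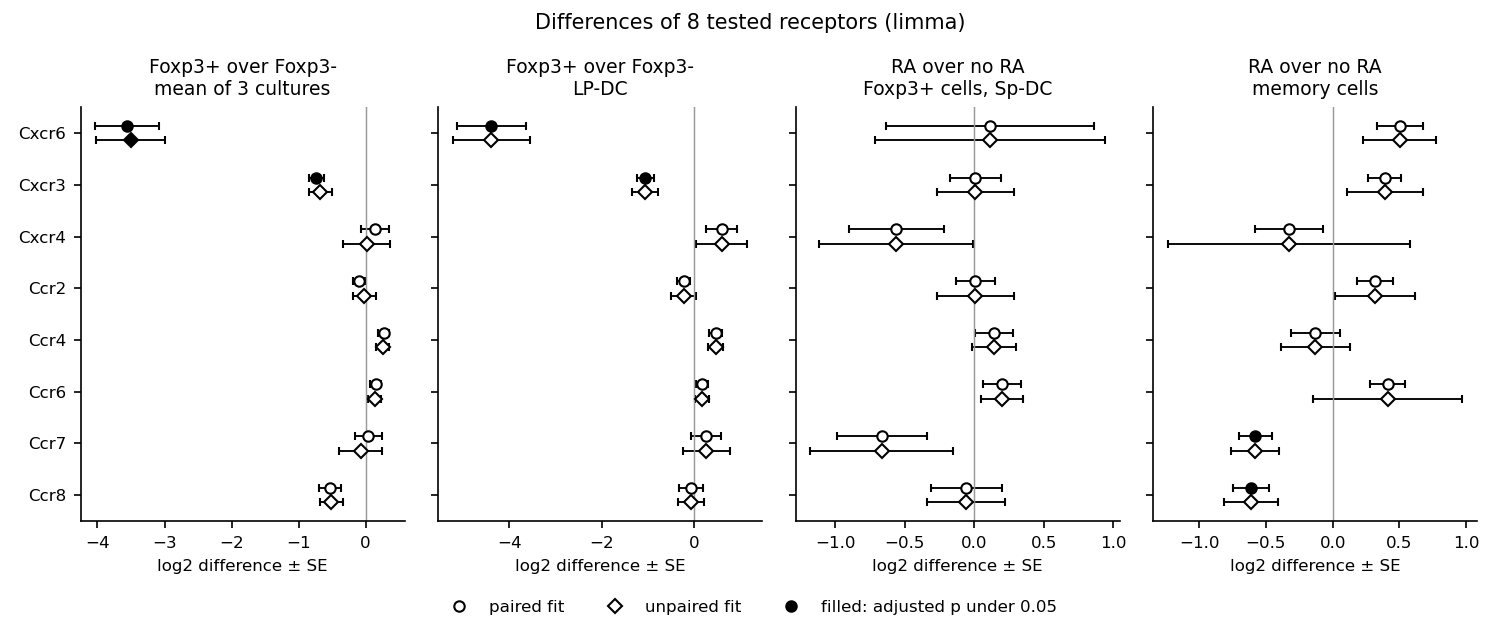
Log2 difference with its SE (horizontal axis) of the 8 tested receptors in 4 comparisons, with the block (circles, paired) and without it (diamonds, unpaired), filled where the adjusted p was under 0.05. Filled symbols are Cxcr6 and Cxcr3 for Foxp3+ over Foxp3- cells and Ccr7 and Ccr8 for RA in memory cells, and none for RA in Foxp3+ cells. The horizontal scales differ between panels.

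Cxcr3 encodes the receptor for the interferon-induced chemokines Cxcl9, Cxcl10 and Cxcl11 and marks T helper 1 cells. In Foxp3+ cells its log2 level was 7.60 and 7.57 with LP-DC, 7.83 and 7.68 with Sp-DC plus RA, and 7.85 and 7.64 with Sp-DC. In Foxp3- cells it was 8.97 and 8.33 with LP-DC, 8.19 with Sp-DC plus RA, and 8.65 and 7.91 with Sp-DC. The 6 Foxp3+ arrays lay close together and under every Foxp3- array. The difference was -0.74 ± 0.12 in the paired fit (adjusted p = 0.00607), or 1.67-fold lower, and -0.68 ± 0.17 in the unpaired fit, which did not pass (adjusted p = 0.174). The paired call held without each of the same 10 arrays in turn, at adjusted p of 0.00429 to 0.0297, and in the mean over LP-DC and Sp-DC without the single Sp-DC plus RA Foxp3- array (-0.80, adjusted p = 0.00649).

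Ccr8, a receptor of T helper 2 and regulatory T cells that binds Ccl1 in mice, did not pass in this comparison. Its log2 level was 6.51 and 6.37 with LP-DC, 6.09 and 6.17 with Sp-DC plus RA, and 6.07 and 6.30 with Sp-DC in Foxp3+ cells. In Foxp3- cells it was 6.39 and 6.66 with LP-DC, 6.90 with Sp-DC plus RA, and 7.35 and 6.41 with Sp-DC. The groups overlapped through the LP-DC arrays. The difference was -0.53 ± 0.16 in the paired fit (adjusted p = 0.120), and it passed there only without the second Sp-DC Foxp3- array (-0.67, adjusted p = 0.0086).

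Ccr4, which binds Ccl17 and Ccl22 and is carried by skin-homing, T helper 2 and regulatory T cells, was near the array median throughout. Its log2 level was 5.93 to 6.17 on the 6 Foxp3+ arrays and 5.38 to 6.02 on the 5 Foxp3- arrays, with overlap. The difference was 0.27 ± 0.09 in the paired fit, short of the threshold (adjusted p = 0.142). The differences of Ccr6, Ccr7, Cxcr4 and Ccr2 were between -0.09 and 0.15 in the paired fit, with adjusted p of 0.511 to 0.978.

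With LP-DC alone, Cxcr6 and Cxcr3 fell in the paired fit, and without the block neither passed. Cxcr6 was 4.50 and 4.28 in Foxp3+ cells, against 9.33 and 8.24 in Foxp3- cells, a difference of -4.39 ± 0.75 (paired adjusted p = 0.0118, unpaired 0.0928). Both Foxp3+ levels were under the array median. With them set to it the difference was -2.86 (paired adjusted p = 0.0106), or 7.24-fold lower as an estimate of the mean. Cxcr3 differed by -1.07 ± 0.18 or 2.09-fold (paired adjusted p = 0.0126, unpaired 0.257). In this comparison 3.58% of tested genes passed with the block and 0.135% without it. At an unadjusted limma p under 0.05 were 3 receptors (Cxcr6, Cxcr3 and Ccr4) in each fit, beside 12.7% of tested genes paired and 6.03% unpaired. The paired call of Cxcr6 was lost without either LP-DC Foxp3+ array or without the first LP-DC Foxp3- array (adjusted p of 0.0599 to 0.0834), and that of Cxcr3 without the first LP-DC array of either sort (adjusted p of 0.106 and 0.138). Ccr4 was 6.02 and 6.00 in Foxp3+ cells, against 5.38 and 5.73 in Foxp3- cells, a difference of 0.46 ± 0.14 that did not pass (paired adjusted p = 0.132).

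With Sp-DC alone no receptor passed in either fit, where 0.557% of tested genes passed paired and 0% unpaired. At an unadjusted p under 0.05 in limma there were 3 receptors paired (Cxcr6, Cxcr3 and Ccr8) and 2 unpaired (Cxcr6 and Ccr8), beside 1132 genes paired (9.56% of those tested) and 419 unpaired (3.54%). Cxcr6 was 4.63 and 6.63 in Foxp3+ cells, against 9.50 and 9.57 in Foxp3- cells. That difference, -3.90 ± 0.75, had a paired adjusted p of 0.0577, and it passed without either LP-DC Foxp3- array (0.0475) or without the second Sp-DC Foxp3+ array (-5.36, adjusted p = 0.00575). Without the first Sp-DC Foxp3+ array it was -2.45 (paired adjusted p = 0.189). Cxcr3 differed by -0.54 ± 0.18 (paired adjusted p = 0.319) and Ccr8 by -0.69 ± 0.25 (paired adjusted p = 0.372), again with Foxp3+ arrays all under the Foxp3- arrays. With Sp-DC plus RA there is a single Foxp3- array and no separate test. There Cxcr6 was 6.94 and 4.54 in Foxp3+ cells, against 7.96 in Foxp3- cells, and Cxcr3 was 7.83 and 7.68 in Foxp3+ cells, against 8.19 in Foxp3- cells.

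Whether the Foxp3+ over Foxp3- difference itself differs between LP-DC and Sp-DC was tested as an interaction. No receptor passed or had an unadjusted p under 0.05, and 0% of tested genes passed in either limma fit, while 434 genes with the block (3.66%) and 108 without it (0.912%) had an unadjusted p under 0.05. The differences between the 2 cultures were -0.49 ± 1.06 for Cxcr6 and -0.53 ± 0.26 for Cxcr3 in the paired fit (adjusted p near 1.00 for both). For Cxcr4 the same-numbered differences were 0.97 and 0.21 with LP-DC and -0.22 and -0.54 with Sp-DC, and that contrast did not pass either (paired adjusted p near 1.00).

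Summed over their markers, CD8 T and NK cell genes were lower in Foxp3+ cells, as Cxcr6 was, while single markers ran both ways. The linear values of the 9 measured markers of the 10 listed summed to 2433 to 2636 in Foxp3+ cells and 5786 to 7393 in Foxp3- cells with LP-DC. With Sp-DC plus RA the sums were 2681 to 3110 in Foxp3+ cells and 5891 in Foxp3- cells, and with Sp-DC they were 4927 to 6013 in Foxp3+ cells and 8395 to 8564 in Foxp3- cells. Of the defining markers, Cd8b1 and Ncr1 were under the median on every array, and Cd8a was above it on 6 of the 11 co-culture arrays. Cd8a was 5.35 and 4.68 in Foxp3+ cells with LP-DC, against 7.01 and 5.53 in Foxp3- cells with LP-DC, and fell there in the paired fit (-1.26 ± 0.24, adjusted p = 0.0205, unpaired 0.672), but did not pass in the mean of the cultures (-0.43 ± 0.15, paired adjusted p = 0.195). Of 7 tested markers 2 fell in both fits, Gzma, which encodes granzyme A (-2.86 ± 0.47, paired adjusted p = 0.00698), and Klrd1, which encodes the NK receptor subunit CD94 (-2.14 ± 0.15, paired adjusted p = 0.000215). Klrk1 (-0.65), Nkg7 (-0.53) and Gzmk (-0.19) did not pass, and neither did Eomes, which differed the other way (0.67 ± 0.17, paired adjusted p = 0.0508). Gzma was 5.80 and 6.18 with LP-DC, 9.72 and 8.38 with Sp-DC plus RA, and 6.17 and 8.97 with Sp-DC in Foxp3+ cells, so within each of the RA and Sp-DC pairs it was high on the array where Cxcr6 was high. Klrd1 did so with Sp-DC (8.69 and 9.82 in Foxp3+ cells) and not with Sp-DC plus RA (7.42 and 8.24). The other tested markers are given for Foxp3+ cells with Sp-DC plus RA and then with Sp-DC. Nkg7 (10.65 and 10.55, then 11.66 and 11.78) and Gzmk (6.65 and 6.34, then 6.48 and 6.50) did so in both pairs, by little. Cd8a (6.77 and 5.93, then 6.04 and 5.62) and Klrk1 (6.58 and 6.11, then 6.78 and 6.70) did so only with Sp-DC plus RA. Eomes did so in neither (6.80 and 8.06, then 9.74 and 9.56). The part of these markers in the Cxcr6 difference was not tested.

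**Figure D3:**
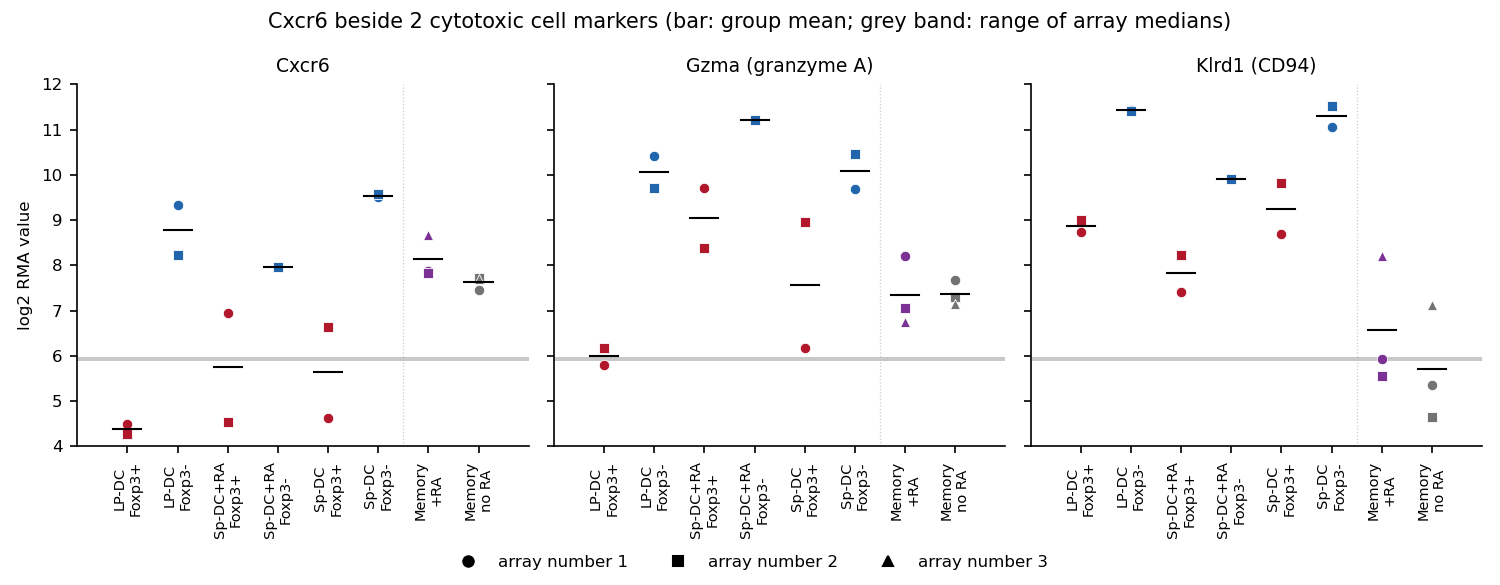
Log2 RMA value (vertical axis) of Cxcr6, Gzma and Klrd1 on each array (points, with the array number as the shape) by group (horizontal axis), with group means as bars and the range of array medians in grey. Within each of the 3 cultures the Foxp3+ arrays lie under the Foxp3- arrays in every panel, and the high Foxp3+ arrays of Cxcr6 (6.94 and 6.63) are also the higher of their pairs in Gzma (9.72 and 8.97). In Klrd1 this holds with Sp-DC (9.82) and not with Sp-DC plus RA (7.42). Markers not drawn differ in this, and Eomes runs the other way in both pairs.

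The source of the dendritic cells was compared next. In Foxp3+ cells with LP-DC, set against Sp-DC, no receptor passed, and the same held against Sp-DC plus RA and in Foxp3- cells. The share of tested genes that passed was 1.81% paired and 0% unpaired for LP-DC over Sp-DC in Foxp3+ cells, 1.87% and 0.0929% for LP-DC over Sp-DC plus RA, and 0.861% and 0% in Foxp3- cells. At an unadjusted p under 0.05 there were 2245 genes paired (19.0%) and 947 unpaired (7.99%) for LP-DC over Sp-DC in Foxp3+ cells, and 1986 paired (16.8%) and 794 unpaired (6.7%) in Foxp3- cells (limma). Among the receptors that level was reached paired by Ccr6 in Foxp3+ cells and by Cxcr4, Ccr2 and Ccr6 in Foxp3- cells, unpaired by Cxcr4 in Foxp3- cells, and by none against Sp-DC plus RA. These comparisons share arrays with each other and with the sort. The dendritic cell marker sums given above were lower with LP-DC than with Sp-DC or Sp-DC plus RA, without overlap. The largest level in each sum was H2-Ab1, at 8.85 to 9.52 in log2 with LP-DC and 9.88 to 10.78 in the other cultures. Adgre1 (6.96 to 7.46 against 7.03 to 8.97), Cst3 (7.88 to 8.32 against 8.31 to 8.88) and Cd74 (6.43 to 6.78 against 6.04 to 6.72) overlapped. Itgax, Itgam, Lyz2, Xcr1 and H2-Aa were under the array median on all 11 co-culture arrays. The part of these markers in the receptor values was not tested.

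Cxcr6 in Foxp3+ cells was 4.50 and 4.28 with LP-DC, under both Sp-DC arrays (4.63 and 6.63) and both Sp-DC plus RA arrays (6.94 and 4.54). The levels of 4.50, 4.28, 4.63 and 4.54 were under the array median, so their order is one among low values. The differences were -1.24 ± 0.75 against Sp-DC (paired adjusted p = 0.423) and -1.35 ± 0.75 against Sp-DC plus RA (paired adjusted p = 0.475). The first of these passed only without Sp-DC Foxp3+ number 1 (-2.70, paired adjusted p = 0.0382), and its sign turned in the paired fit without Sp-DC Foxp3+ number 2 (0.21).

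Cxcr4, the receptor for Cxcl12 that holds lymphocytes in marrow and lymphoid tissue, was 6.00 and 6.53 in Foxp3- cells with LP-DC, against 6.99 and 8.57 with Sp-DC. The groups did not overlap, and the difference of -1.52 ± 0.34 missed the threshold (paired adjusted p = 0.0665). It passed without either LP-DC Foxp3+ array (adjusted p = 0.0246), which leaves the value itself as it was. Without the first Sp-DC Foxp3- array it was -2.03 paired (adjusted p = 0.0894) and -2.31 unpaired, and without the second -1.0 paired (adjusted p = 0.501) and -0.73 unpaired. Ccr6, the receptor for Ccl20 carried by T helper 17 cells, was 6.77 and 6.92 with LP-DC against 6.48 and 6.54 with Sp-DC in Foxp3+ cells, and 6.77 and 6.59 with LP-DC against 6.24 and 6.49 with Sp-DC in Foxp3- cells. Both LP-DC groups lay above the Sp-DC groups without overlap, by 0.33 ± 0.14 (paired adjusted p = 0.226) and 0.31 ± 0.14 (0.283), and neither passed.

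RA added to Sp-DC cultures was tested in Foxp3+ cells, 2 arrays with RA and 2 without. On the probe sets used, none of the 8 receptors passed or had an unadjusted p under 0.05 in either limma fit. The share of tested genes that passed was 1.12% with the block and 0.101% without it. An unadjusted limma p under 0.05 was reached by 12.3% of tested genes paired and 4.81% unpaired. With only 8 receptors, none at that level is near what all genes show. The differences of these probe sets ran from -0.67 ± 0.32 for Ccr7 (paired adjusted p = 0.448) to 0.20 ± 0.14 for Ccr6 (0.613). For Ccr2 the probe set used differed by 0.01 ± 0.14. Other Ccr2 probe sets differed by -0.74 ± 0.28 and -0.33 ± 0.19 when fitted singly (paired adjusted p = 0.313 and 0.538). Ccr7 was 8.13 and 9.70 with RA, against 9.07 and 10.09 without RA, so the groups overlapped although each array with RA lay under the array of the same number. Cxcr6 was 6.94 and 4.54 with RA, against 4.63 and 6.63 without RA, and the 2 numbers moved in opposite directions.

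In memory cells RA was compared over 3 arrays with RA and 3 without, numbered 1 to 3. Ccr7 and Ccr8 fell with RA in the paired fit and no receptor rose. That is 2 of 8 tested receptors, where 4.94% of all tested genes passed in the paired fit. Without the block 0 of 8 passed, where 0.0829% of genes did, and 2 receptors (Ccr7 and Ccr8) and 495 genes (4.1%) had an unadjusted p under 0.05 there. With the block that limma level was reached by 6 receptors (Cxcr6, Cxcr3, Ccr2, Ccr6, Ccr7 and Ccr8), beside 1898 genes (15.7%).

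Ccr7, the receptor for Ccl19 and Ccl21 that brings naive and central memory T cells into lymph nodes, was 8.93, 9.08 and 8.84 with RA, against 9.44, 9.70 and 9.44 without RA. Every array with RA lay under every array without RA. The difference was -0.58 ± 0.13 (paired limma fit, adjusted p = 0.0310), or 1.49-fold lower, and -0.58 ± 0.18 in the unpaired fit (adjusted p = 0.731). Within numbers it was -0.51, -0.63 and -0.60.

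Ccr8 was 6.30, 6.19 and 5.78 with RA, against 6.72, 6.80 and 6.59 without RA, again without overlap. The third array with RA lay under its array median, the only one of the 17 arrays where Ccr8 did. The difference was -0.61 ± 0.14 (paired limma fit, adjusted p = 0.0333), or 1.53-fold lower, and in the unpaired fit it did not pass (adjusted p = 0.851). Both calls are lost without the third pair of arrays, where the differences were -0.57 for Ccr7 and -0.51 for Ccr8 (paired adjusted p = 0.235 and 0.297). They are also lost where all 20777 probe sets are fitted singly, at paired adjusted p of 0.0509 for Ccr7 and 0.0543 for Ccr8 with the same differences.

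**Figure D4:**
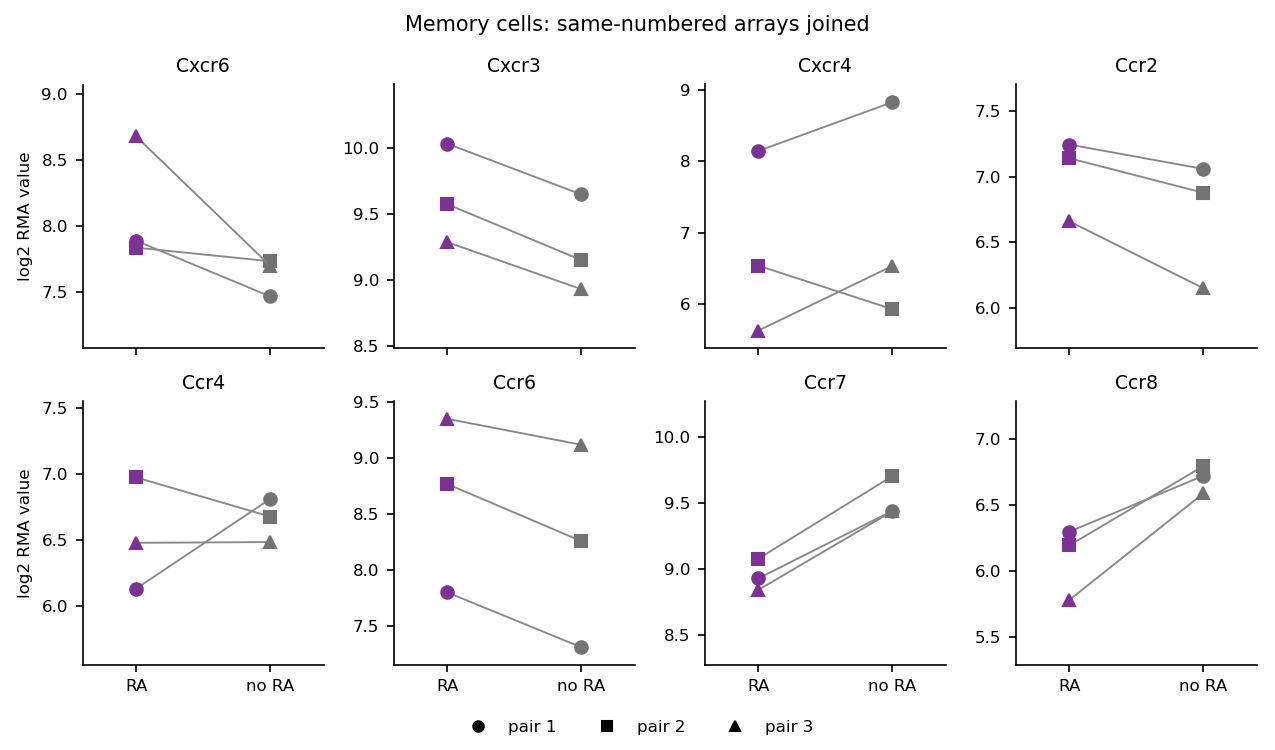
Log2 RMA value (vertical axis, with a range of its own in each panel) of the 8 tested receptors in memory cells with RA (left) and without RA (right), 1 line for each pair of same-numbered arrays. Ccr7 and Ccr8 are lower with RA in 3 of 3 pairs without overlap. Cxcr6, Cxcr3, Ccr6 and the probe set used for Ccr2 are higher in 3 of 3 pairs, though other Ccr2 probe sets differ. Cxcr4 and Ccr4 have pairs that run both ways. The share of all genes with such pairs was not counted, so this describes the points only.

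The other receptors in memory cells did not pass. Cxcr6 was 7.89, 7.83 and 8.68 with RA, against 7.46, 7.73 and 7.70 without RA. The groups did not overlap, the third array with RA stood above the rest, and the difference was 0.50 ± 0.17 (paired adjusted p = 0.170). Without pair 2 Cxcr6 passed in the paired fit, at 0.70 (adjusted p = 0.00947), and so did Cxcr4, at -0.79 (adjusted p = 0.00186).

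Cxcr3 was 10.03, 9.57 and 9.29 with RA, against 9.65, 9.15 and 8.93 without RA. The numbers lay in the same order in both groups, and within numbers the differences were 0.38, 0.42 and 0.36 (mean 0.39 ± 0.13, paired adjusted p = 0.140). Ccr6 was 7.80, 8.77 and 9.35 with RA, against 7.31, 8.26 and 9.12 without RA. Here too the arrays of a number moved together, the groups overlapped, and the difference was 0.41 ± 0.13 (paired adjusted p = 0.138). The unpaired SE of Ccr6, 0.56, was larger than its difference.

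Cxcr4 was 8.14, 6.54 and 5.63 with RA, against 8.83, 5.93 and 6.54 without RA, with pair 1 far above the other pairs. Its difference was -0.33 ± 0.25 (paired adjusted p = 0.631). Ccr4 was 6.13, 6.97 and 6.48 with RA, against 6.81, 6.68 and 6.48 without RA, a difference of -0.13 ± 0.18 (0.820). Cxcr5 stayed under the median, at 4.85 to 5.32 with RA and near 5.17 without RA.

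Ccr2, the receptor for Ccl2 carried by monocytes and effector memory T cells, has 3 probe sets above the median on most arrays, and they did not run together. The probe set used for the gene was 7.24, 7.14 and 6.66 with RA, against 7.06, 6.88 and 6.15 without RA, a difference of 0.32 ± 0.13 (paired adjusted p = 0.281). The others differed by -0.27 ± 0.15 and -0.16 ± 0.16 when fitted singly (paired adjusted p = 0.478 and 0.728), so no direction is given for Ccr2 in memory cells. In the sort, the same 2 probe sets differed by -0.43 ± 0.18 and -0.42 ± 0.12 (paired adjusted p = 0.299 and 0.0981), against -0.09 ± 0.09 for the probe set used.

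**Figure D5:**
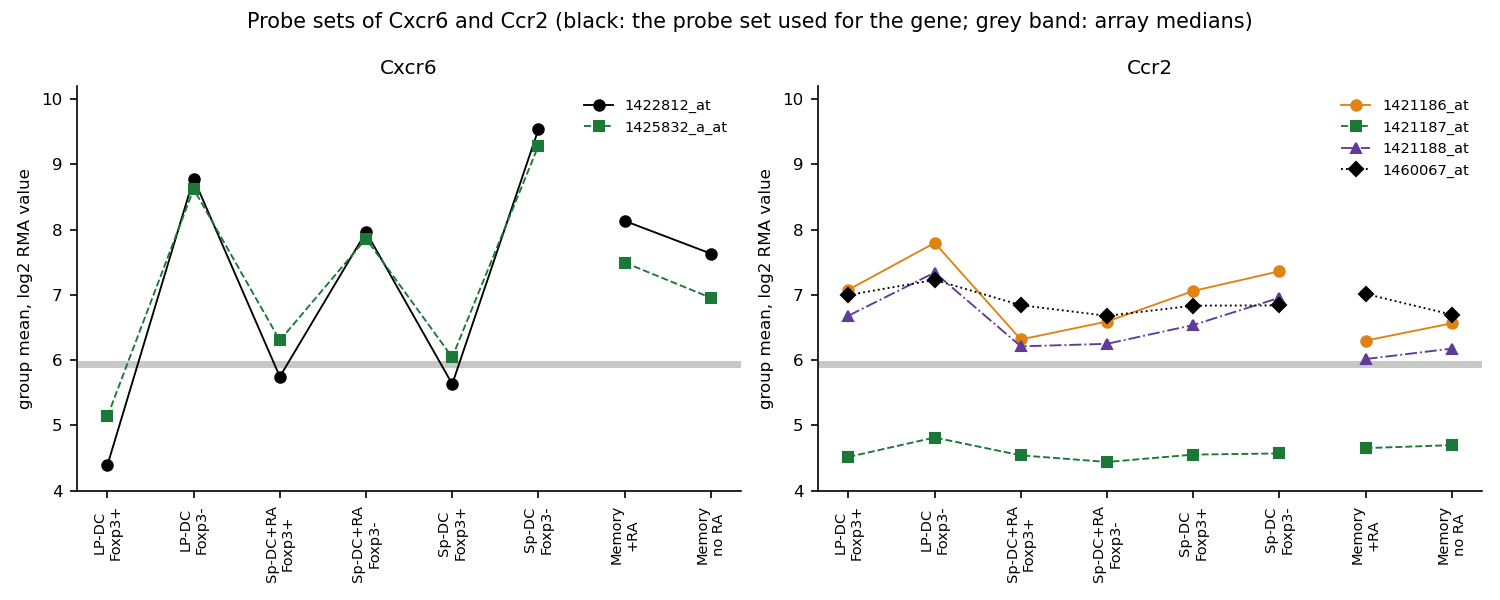
Group mean of log2 RMA values (vertical axis) of every probe set of Cxcr6 and Ccr2 by group (horizontal axis), with the probe set used for the gene in black and the range of array medians in grey. The 2 probe sets of Cxcr6 rise and fall together, while those of Ccr2 part in the RA groups, and 1 Ccr2 probe set stays under the grey band.

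Markers of CD8 T and NK cells also differed between the memory groups. Their summed linear values were 1853 to 2341 with RA and 962 to 1261 without RA, and 3 of 6 tested markers rose in the paired fit, Nkg7 (1.76 ± 0.16), Gzmk (0.88 ± 0.16) and Klrd1 (0.87 ± 0.14), with Gzma at -0.04 ± 0.18. None of the 3 passed without the block (adjusted p of 0.452 for Nkg7 and near 1.00 for Gzmk and Klrd1). Cd8a, Cd8b1 and Ncr1 were under the median on all 6 memory arrays, and the part of these markers in the receptor values was not tested.

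Whether the RA effect in memory cells differs from that in Foxp3+ cells with Sp-DC was tested in 1 fit over all 17 arrays. No receptor passed or had an unadjusted p under 0.05 in either limma fit, while the share of tested genes that passed was 1.41% with the block and 0.0525% without it. An unadjusted limma p under 0.05 was reached by 12.4% of tested genes paired and 2.55% unpaired. For Ccr7 the difference of effects was 0.09 ± 0.37 (paired adjusted p = 0.952), and for Ccr8 it was -0.55 ± 0.30 (0.510). The 2 experiments differ in cells, culture, time and TGFbeta dose, so levels in memory and co-cultured cells are given side by side only. Across the 8 group means Cxcr6 was highest in Foxp3- cells with Sp-DC (9.54) and lowest in Foxp3+ cells with LP-DC (4.39), with the memory groups between (8.13 with RA, 7.63 without RA). In that order neighbouring groups overlapped between Foxp3- cells with LP-DC and memory cells with RA, between memory cells with RA and the single array of Foxp3- cells with Sp-DC plus RA, and between Foxp3+ cells with Sp-DC plus RA and with Sp-DC. Cxcr3 was highest in memory cells (9.63 with RA, 9.24 without RA), and so was Ccr6 (8.64 and 8.23, against 6.37 to 6.84 in the co-culture groups). Neighbouring groups in the order of Cxcr3 overlapped, apart from Foxp3- over Foxp3+ cells with Sp-DC plus RA and Foxp3+ cells with Sp-DC over those with LP-DC.

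Genes around these receptors were read from lists chosen with earlier results of these data known. Each count below is of the paired fit. Without the block 0 genes of these 5 lists passed in any comparison, so all of these calls rest on the block. There, at an unadjusted limma p under 0.05, were 17 of their 81 tested genes for Foxp3+ over Foxp3- in the mean of the cultures, where 958 of all 11846 genes (8.09%) were, and 12 of 82 for RA in memory cells, where 4.1% of all genes were. The paired counts stand beside the shares of all tested genes given above, 4.79% for Foxp3+ in the mean of the cultures, 3.58% with LP-DC, 1.12% for RA in Foxp3+ cells and 4.94% for RA in memory cells, so 1 or 2 genes of a list are near what all genes show and say nothing of the list. The median paired difference of the 5 lists lay between -0.08 and 0.05 for Foxp3+, against -0.02 for all tested genes, and between -0.22 and 0.11 for RA in memory cells, against -0.000416. Of 5 tested genes among the other chemokine receptors (12 of 14 measured) 1 rose with Foxp3+, Ccrl2, an atypical receptor that binds chemerin without signalling (1.07 ± 0.21, adjusted p = 0.0187), and with LP-DC it was 1.96 ± 0.34 higher (0.0124). Of 9 tested chemokine ligands 1 fell with Foxp3+, Ccl1, the ligand of Ccr8 (-0.42 ± 0.10, adjusted p = 0.0481), and of 11 tested in memory cells 1 rose with RA, Ccl3 (0.60 ± 0.13, adjusted p = 0.0352). Ccl1 was low, above the array median on 3 of the 11 co-culture arrays. It was highest on the single Sp-DC plus RA Foxp3- array (6.73) and on LP-DC Foxp3- number 2 (6.38). With Sp-DC Ccl1 was 5.42 and 5.54 in Foxp3+ cells, against 5.41 and 5.49 in Foxp3- cells.

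Among 28 tested genes of receptor signalling and desensitization 1 rose and 1 fell with Foxp3+. Rgs2, a regulator that ends G protein signalling, rose by 1.11 ± 0.10 (adjusted p = 0.000513), and Gng2, a G protein gamma subunit, fell by 0.45 on the log2 scale (SE 0.10, adjusted p = 0.0258). With LP-DC Rgs2 (1.79 ± 0.15) and Rgs1 (1.21 ± 0.26), which dampens chemokine responses, rose. Of 27 tested in memory cells 2 rose with RA, Rgs10 (0.70 ± 0.13) and Rgs3 (0.65 ± 0.14), and none fell.

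Of 21 tested transcription factors known to act on such receptors 1 fell with Foxp3+, a share like the 4.79% of all genes. It was Tbx21, which encodes T-bet, an activator of Cxcr3 (-1.07 ± 0.20, adjusted p = 0.0129). In Foxp3+ cells with Sp-DC, 3 of 21 fell with RA, Eomes (-2.22 ± 0.26), Maf (-1.20 ± 0.22) and Prdm1 (-1.02 ± 0.18), and none rose. In memory cells 5 of 21 fell with RA and 2 rose, with Satb1 (-1.73 ± 0.14), Nfil3 (-1.14 ± 0.13) and Prdm1, which encodes Blimp-1 (-1.08 ± 0.17), lower and Stat4 (0.99 ± 0.13) higher. Among 18 tested trafficking receptors of other families 2 rose with Foxp3+, Icam1 (0.65 ± 0.09) and Cd69 (0.54 ± 0.13), and 1 fell, Cd44 (-0.36 ± 0.08). Of 17 tested in memory cells 3 fell with RA, P2ry10 (-0.85 ± 0.20), Icam1 (-0.71 ± 0.13) and Itgal (-0.56 ± 0.13), and 1 rose, Selplg (0.60 ± 0.14).

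The genes whose 8 group means were most like those of each receptor were named by Pearson's r among 3724 genes whose group means spanned at least 1 log2 unit. For Cxcr6 they were Ppp3cc (r = 0.985), Rcc1l (0.977) and Tjp1 (0.953), and for Cxcr3 they were Kif20b (0.982), Ccnf (0.975) and Kntc1 (0.972). For Ccr6 they were Smarcc1, Dhx37 and Rccd1 (0.996 each). For Cxcr4 they were Dnajb2 (0.945) and Hspa1b (0.917). For Ccr7 no r was above 0.77. These 8 points share arrays, normalization and the 2 experiments, and the values are descriptions.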

How the data were processed

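Total RNA of sorted mouse CD4 T cells was amplified in 2 rounds and hybridised to mouse arrays, per the labels' protocols. The authors deposited linear intensity values computed by RMA, per the submitters' processing notes, with the version and the arrays normalized together not given in the sources used here. They hold 45101 probe sets on 17 arrays, 34958 of them with 1 gene symbol, and 932 with several or 9211 with none were not used. The number of arrays limits the precision. A second Sp-DC plus RA Foxp3- array is not analysed here.

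Log2 was taken without a pseudocount. Of several probe sets of a gene the brightest on average was used, and cross-hybridizing ones only if no other was there, which gave 18194 genes. Tested were genes over the median of at least 2 arrays, 11846 in the co-culture, 12062 in memory cells and 11432 in both. 1 limma 3.58.1 model (R 4.3.3) with 1 coefficient per group was fitted per experiment, with empirical Bayes and Benjamini-Hochberg adjustment over all tested genes at 0.05. The code was also run on simulated data that held the array-number effect by construction, which does not check the paired calls. The labels number the arrays, and residuals of same-numbered arrays correlated at 0.45 to 0.75 over 10 pairs of co-culture groups and at 0.65 to 0.94 over the 3 memory pairs, so the paired fit is printed beside the unpaired one. The unpaired fit was set as the main fit and the block as an alternative.

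The receptors and gene lists were chosen with earlier results of these data known. The text names every receptor, up to 4 passing genes per list and comparison, of which some are given here, and up to 3 genes most like each receptor. Promoter windows and positions come from RefSeq (GRCm38.p6).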

Additional observations from a re-analysis of the deposited data

How the results depend on the processing

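Groups of 1 to 3 arrays and a filter at the array median limit all of these values, and a receptor under the median, such as Cxcr5, was not tested. The paired fit rests on 4 (co-culture) or 2 (memory) residual degrees of freedom. The 29 differences followed here were compared with the unpaired fit, where only Cxcr6 in the mean Foxp3+ comparison passed. Of 954 values under alternatives 864 kept their sign and their side of the threshold. Another 67 passed only in the alternative, 6 no longer passed and 17 turned sign. Most of the 864 are therefore values that passed in neither. Losses of paired calls, given above, are not among the 6. None of the 128 values that turned sign among all 2783 was past the threshold, unpaired or in the alternative.

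With the replicate block (the paired fit), alone or with quantile normalization or median-centring, 2 receptors passed instead of 1 in the mean Foxp3+ over Foxp3- comparison, 2 instead of 0 with LP-DC, and 2 instead of 0 for RA in memory cells. It changed no other count. With every probe set fitted singly and the block, an alternative added after seeing the data, the counts were 2, 2 and 0. Also chosen after seeing the data, with the block, the mean over LP-DC and Sp-DC without the single Sp-DC plus RA Foxp3- array held 2 receptors, and with levels under the array median set to it there were 2 in the mean, 2 with LP-DC and 1 instead of 0 with Sp-DC (Cxcr6, -3.26, adjusted p = 0.0403). In 1 fit over all 17 arrays 1 receptor, Cxcr6, passed with LP-DC. Over both fits without each array in turn (10 of the 11 for the mean Foxp3+ comparison), the receptors that passed numbered 0 to 3 for the mean Foxp3+ comparison, 0 to 2 with LP-DC, 0 to 1 with Sp-DC, 0 to 1 for LP-DC over Sp-DC in Foxp3+ cells, 0 to 1 in Foxp3- cells, and 0 to 4 for RA in memory cells. Left without both memory arrays numbered 3, also added after seeing the data, no receptor passed for RA in memory cells.

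Values that turned sign were the Cxcr6 interaction of sort and dendritic cell (0.005 with log2 of the value plus 32, and -1.94 to 0.97 without each array in turn) and Ccr2 with RA in memory cells (-0.039 as the mean of its probe sets). Without each array in turn, Ccr7 with RA in Foxp3+ cells ranged from -1.45 to 0.12, Cxcr6 for LP-DC over Sp-DC in Foxp3+ cells from -2.70 to 0.21, and the Ccr7 difference of RA effects from -0.70 to 0.87. With RA in memory cells the ranges were -0.35 to 0.15 for Ccr4, -0.049 to 0.856 for Ccr6 and -1.01 to 0.54 for Cxcr4. The cause was not tested.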
